A study of Mus musculus with 288 samples.

Results

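The oxygen sensors of the hypoxia-inducible factor (HIF) pathway are encoded by Egln1, Egln2, Egln3 and Hif1an, and Vhl encodes the protein that acts on what they mark. These 5 genes were taken by their symbols from the tables of 35904 genes, and 5 of 5 were found, each above 0 in every library. Lung, liver, kidney, muscle, heart and cerebellum came from wild type C57BL/6J male mice, 8 weeks of age. Mice were kept in normoxia (room air, 21% O2) or exposed to intermittent hypoxia (IH), in which O2 cycled between 21% and 8% during the light phase, for 7 days. The mice of both groups then went into constant darkness in room air, and tissues were collected on day 2 of darkness at 8 time points 3 hours apart, so that the IH libraries were also made after return to room air. With 3 replicates per time point, each of the 6 tissues had 24 libraries per treatment. The labels do not record which libraries of different tissues share a mouse.

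In the presence of oxygen, the prolyl hydroxylase domain (PHD) enzymes hydroxylate prolines of the HIF-α subunits, and the VHL protein, the substrate receptor of a ubiquitin ligase, binds the hydroxylated subunit and brings about its degradation. Factor inhibiting HIF (FIH, the product of Hif1an) hydroxylates an asparagine instead, which keeps coactivators away from HIF-α. When oxygen is short these reactions slow down, HIF-α accumulates, and its target genes are transcribed; Egln1 and Egln3 are themselves known HIF targets, so that the pathway feeds back on its own sensors. Egln1 encodes PHD2, the main sensor in most cells, Egln2 encodes PHD1 and Egln3 encodes PHD3.

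On GRCm38 (RefSeq annotation, GRCm38.p6), Egln1 lies on chromosome 8 from 124908587 to 124949254, Egln2 on chromosome 7 from 27158658 to 27166802 and Egln3 on chromosome 12 from 54178981 to 54203874. Hif1an lies on chromosome 19 from 44562854 to 44576274, and Vhl on chromosome 6 from 113623994 to 113631634. HIF binds DNA at the core letters ACGTG or GCGTG, which were searched on both strands (CACGT and CACGC on the other) in the 250 bases before each annotated start. ACGTG was in 16.6% of 32851 promoters of this length, GCGTG in 28.2%, and at least 1 of them in 38.6%. The windows of the 3 PHD genes held such letters, and those of Hif1an and Vhl held 0 matches. A match of 5 letters is a description of the sequence and not a binding site. The 3 PHD windows are shown, since the values below turn on these genes. Each is on the minus strand of the chromosome and is printed 5′ to 3′ as transcribed, with matches to either motif in capitals.
Egln1, chr8:124949255-124949504: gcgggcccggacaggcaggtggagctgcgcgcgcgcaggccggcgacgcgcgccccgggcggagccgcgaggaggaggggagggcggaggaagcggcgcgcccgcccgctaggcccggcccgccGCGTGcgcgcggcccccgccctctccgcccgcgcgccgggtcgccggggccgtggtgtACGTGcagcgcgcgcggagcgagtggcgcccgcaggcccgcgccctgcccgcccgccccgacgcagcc
Egln2, chr7:27166803-27167052: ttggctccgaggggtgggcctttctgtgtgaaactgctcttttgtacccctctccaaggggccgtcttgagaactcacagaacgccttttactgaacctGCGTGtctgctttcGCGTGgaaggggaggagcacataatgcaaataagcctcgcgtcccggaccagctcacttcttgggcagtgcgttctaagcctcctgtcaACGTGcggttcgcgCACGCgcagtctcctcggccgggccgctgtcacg
Egln3, chr12:54203875-54204124: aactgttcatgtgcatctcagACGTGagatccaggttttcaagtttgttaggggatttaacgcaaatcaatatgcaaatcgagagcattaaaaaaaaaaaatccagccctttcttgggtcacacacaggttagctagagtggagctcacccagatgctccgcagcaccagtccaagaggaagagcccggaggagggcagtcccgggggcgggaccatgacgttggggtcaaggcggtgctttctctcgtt
The Egln1 window is 86% G and C and holds 1 GCGTG and 1 ACGTG, 124 and 66 bases before the start. The Egln2 window holds 3 matches to GCGTG and 1 to ACGTG, at 149, 135, 46 and 32 bases, and the window of a further annotated Egln2 start holds 1 GCGTG. The Egln3 window holds 1 ACGTG, 227 bases before the start.

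Values are TPM (transcript abundances with a fixed sum per library), which are corrected for transcript length and can be compared between genes. Each library was also divided by a size factor, the median over genes of its ratio to the geometric mean library of the tissue, and values on that scale are called scaled TPM. The number of genes detected differed between treatments, with 22693.6 ± 736.9 genes in the lung in normoxia and 25455.0 ± 1528.9 after IH, and 25123.8 ± 1718.9 against 21447.0 ± 688.5 in the heart (SD, n = 24 each). Lists of 5 markers per tissue were high in the tissue of the label. A liver library (IH replicate 2 at 13:30) also held heart markers at 32.1% of their level in the heart, and the cerebellum held them at a median of 3.59% in normoxia and 2.15% after IH, and at 33.2% in IH replicate 3 at 1:30.

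The level of each gene in normoxia differed by tissue, and the order of the tissues was different for each gene. Among the PHDs, Egln1 was led by the heart and the muscle, Egln2 by the muscle, and Egln3 by the heart, while Hif1an was led by the muscle and Vhl by the cerebellum. The spread between the highest and the lowest tissue on the scaled log2 level was 16.7-fold for Egln3, 7.46-fold for Egln1, 6.82-fold for Hif1an, 2.82-fold for Egln2 and 2.41-fold for Vhl. Between the highest and the lowest tissue mean of TPM as deposited it was 11.9-fold for Egln3, 9.40-fold for Egln1, 6.44-fold for Hif1an, 4.58-fold for Vhl and 2.57-fold for Egln2, so that Vhl and Egln2 changed places. Of the 75 contrasts between pairs of tissues over the 5 genes, 69 passed an adjusted p of 0.05, where 85.4% of the contrasts of all genes did (limma, 24 libraries per tissue).

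**Figure D1:**
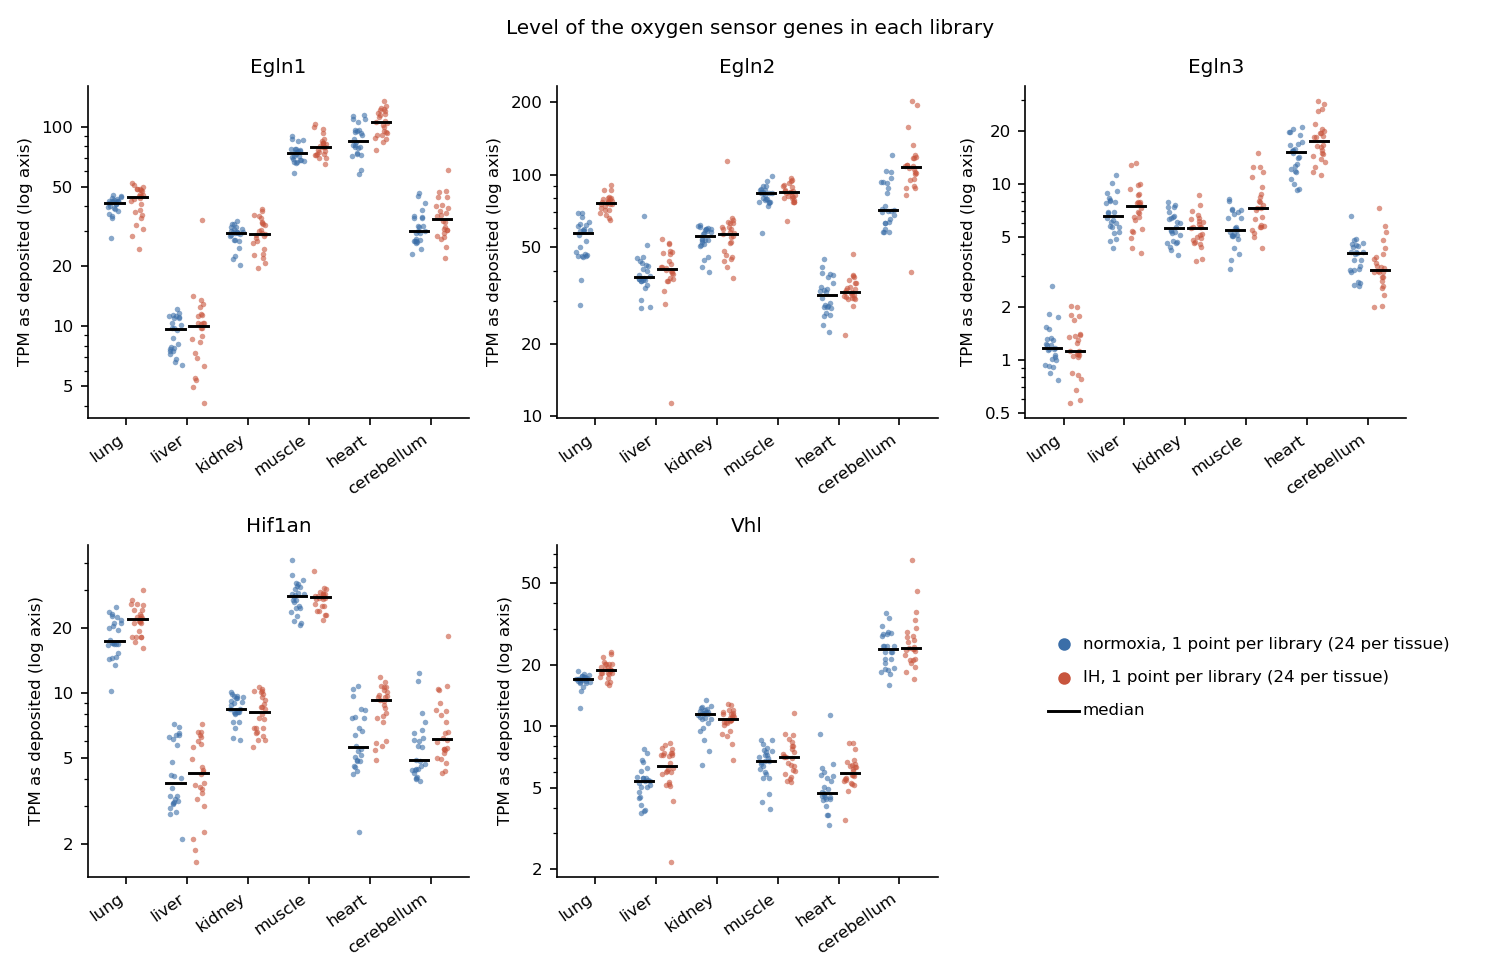
Level of Egln1, Egln2, Egln3, Hif1an and Vhl in each library, as deposited TPM on a log axis against tissue, with 1 point per library, blue for normoxia and red for IH, and a black line at the median of 24 libraries. The medians of Egln1 in normoxia go from 9.68 TPM in the liver to 85.5 TPM in the heart, and 1 liver library after IH stands apart at 34.3 TPM.

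Egln1 in normoxia ranged over 24 libraries from 58.1 to 114.2 TPM in the heart (median 85.5) and from 58.5 to 89.7 TPM in the muscle (median 74.1). It was lower in the lung (27.7 to 45.5, median 41.7), the cerebellum (23.2 to 46.6, median 30.1) and the kidney (20.2 to 33.7, median 29.4), and lowest in the liver (6.40 to 12.3, median 9.68 TPM). The liver libraries did not overlap with those of another tissue. On the scaled log2 level the order was heart, muscle, kidney, lung, cerebellum and liver, and the lung and the cerebellum, which are neighbours in it, did not pass the test (difference 0.06, SE 0.057, adjusted p = 0.327). With TPM as deposited the lung stood above the kidney instead, and that difference also passed.

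Egln2 had a narrower range across tissues. Its libraries ranged from 57.3 to 99.0 TPM in the muscle (median 83.8), from 58.1 to 120.4 TPM in the cerebellum (median 71.3), from 29.0 to 69.8 TPM in the lung (median 57.4) and from 39.6 to 61.7 TPM in the kidney (median 55.7). In the liver they ranged from 28.0 to 67.2 TPM (median 37.9) and in the heart from 22.4 to 44.8 TPM (median 31.7). All 6 ranges overlapped with at least 1 other. The scaled log2 order was muscle, liver, cerebellum, kidney, heart and lung, with no difference past the threshold between cerebellum and kidney (0.09, SE 0.058, adjusted p = 0.125). This order depends on the scale, since 4 contrasts of Egln2 passed in the opposite direction with TPM as deposited, namely lung with liver, lung with heart, liver with kidney and liver with cerebellum.

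Egln3 was the least abundant PHD in each tissue. It ranged from 9.25 to 21.0 TPM in the heart (median 15.2), from 4.33 to 11.2 TPM in the liver (median 6.59), from 3.93 to 7.83 TPM in the kidney (median 5.59) and from 3.28 to 8.23 TPM in the muscle (median 5.48). The cerebellum was lower, at 2.61 to 6.53 TPM (median 4.03), and the lung had the lowest level, at 0.764 to 2.62 TPM (median 1.16). The heart overlapped with the liver and with no other tissue, while the lung and the cerebellum met at their edges. Muscle and kidney were the neighbours whose difference did not pass (0.15 on the scaled log2 level, SE 0.080, adjusted p = 0.0823).

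Hif1an, which encodes FIH, ranged from 20.8 to 41.5 TPM in the muscle (median 28.3) and from 10.3 to 25.2 TPM in the lung (median 17.4). Medians were 8.42 TPM in the kidney (6.07 to 10.1), 5.59 TPM in the heart (2.26 to 10.8), 4.87 TPM in the cerebellum (3.89 to 12.4) and 3.81 TPM in the liver (2.10 to 7.16). The heart and the kidney did not differ on the scaled log2 level beyond their spread (0.02, SE 0.073, adjusted p = 0.840), and the liver stood above the cerebellum there but below it with TPM as deposited. Vhl ranged from 16.0 to 36.0 TPM in the cerebellum (median 24.0), from 12.3 to 18.6 TPM in the lung (median 17.0) and from 6.45 to 13.47 TPM in the kidney (median 11.5). In the muscle (3.94 to 8.62, median 6.78), the liver (3.77 to 7.74, median 5.39) and the heart (3.31 to 11.4, median 4.74) its ranges overlapped. Neighbours of Vhl that did not pass were kidney with lung (adjusted p = 0.154) and muscle with heart (adjusted p = 0.587). Liver stood above muscle on the scaled log2 level and below it with TPM as deposited.

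The PHD mixture of a tissue can be read within each library, where the scale of the library cancels. In normoxia Egln2 made up most of the summed TPM of the PHDs in the liver (70.9% ± 3.28, SD, n = 24), the cerebellum (68.2% ± 4.41), the kidney (61.3% ± 2.22) and the lung (56.1% ± 3.21), and it was at 50.8% ± 2.11 in the muscle. In the heart the main share was that of Egln1, at 64.9% ± 3.73, with Egln2 at 24.1% ± 3.74. Egln3 had its largest shares in the liver (12.4% ± 2.42) and the heart (11.0% ± 1.96), and its smallest in the lung (1.31% ± 0.389).

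After IH, members passed the test of mean 24-hour expression in 4 of the 6 tissues: 4 of 5 genes in the lung, 2 in the cerebellum, and 1 each in the heart and the liver. With limma 0 passed in kidney and muscle, where 0 and 2 genes had p of 0.05 or less before adjustment. Over tissues, Egln2 and Hif1an passed as higher in 2 tissues each, Egln1 and Egln3 as lower in 1 tissue each, and Vhl as higher in 1 and lower in another. Of the 30 comparisons, 0 had a change of 1.5-fold or more together with an adjusted p of 0.05. Over all genes and tissues, that rule called 4.26% of comparisons. By the adjusted p alone, the shares of all genes that were higher and lower after IH were 28.9% and 41.5% for lung, 10.9% and 13.3% for liver, 8.25% and 11.5% for kidney, 5.48% and 4.89% for muscle, 28% and 17.3% for heart, and 9.76% and 5.24% for cerebellum.

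**Figure D2:**
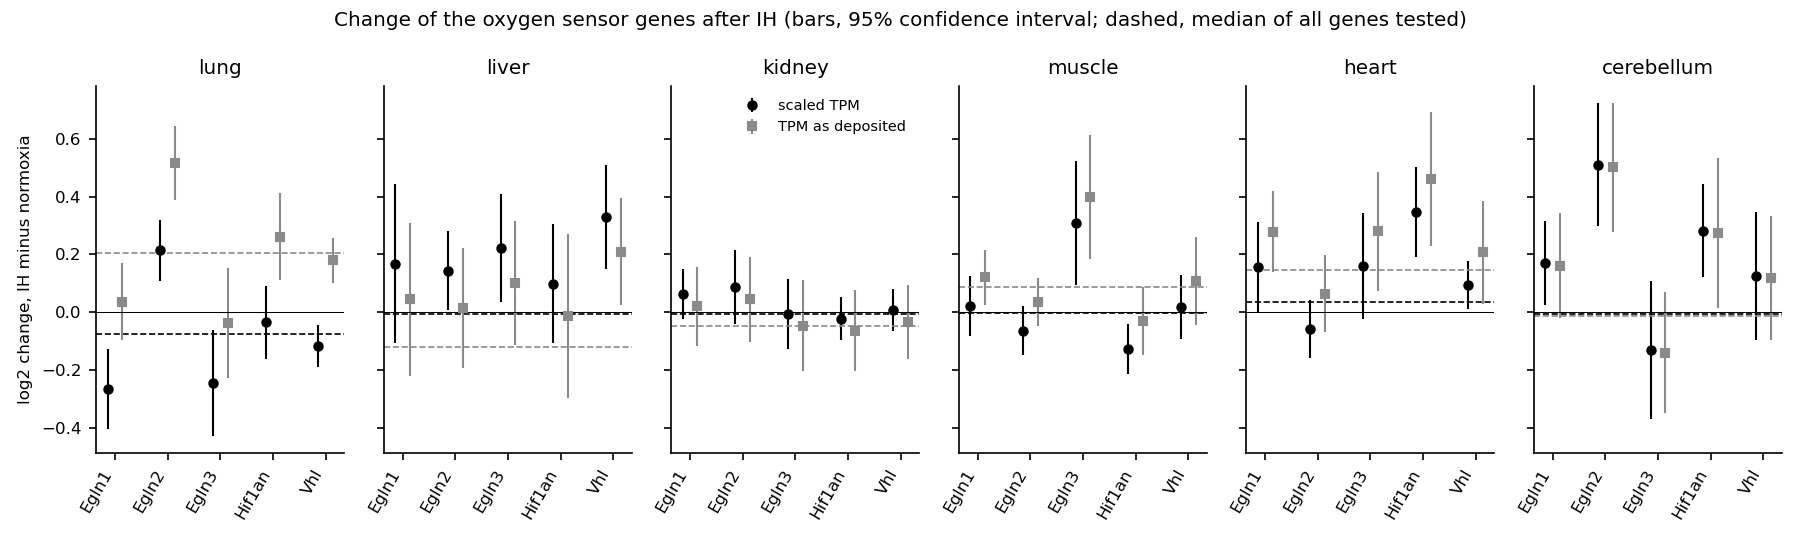
Log2 change after IH (IH minus normoxia) of the 5 genes in each tissue, with 24 libraries per treatment. Black circles are scaled TPM and grey squares TPM as deposited, bars are 95% confidence intervals, and dashed lines are the median change of all genes tested on each scale, which in the lung is -0.08 and 0.21. Egln2 in the lung and in the cerebellum lies above the median gene on both scales.

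The lung had the most members past the test. Egln2, which encodes PHD1, was higher after IH, and Egln1, Egln3 and Vhl were lower on scaled TPM. The scale matters here: with TPM as deposited the median change of all lung genes moved from -0.08 to 0.21, Egln1 changed sign to 0.04 (adjusted p = 0.643), Egln3 went to -0.04 (adjusted p = 0.750) and Vhl turned to 0.18 (adjusted p = 6.66e-05), while Egln2 stayed higher at 0.52 (adjusted p = 1.11e-09). Relative to the median gene the values of both scales were closer, at -0.19 and -0.17 for Egln1, 0.29 and 0.31 for Egln2, -0.17 and -0.24 for Egln3, and -0.04 and -0.03 for Vhl. The members' count of 1 higher and 3 lower of 5 stands beside 28.9% of lung genes higher and 41.5% lower.

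Egln2 in the lung ranged from 39.5 to 75.2 scaled TPM in normoxia (median 60.1) and from 55.4 to 78.9 after IH (median 67.7). The ranges overlapped, but the IH mean was higher at 8 of 8 time points. The change was 0.21 on the log2 scale (SE 0.052, limma adjusted p = 0.000315), which is 1.16-fold. Within the libraries of replicates 1, 2 and 3 alone it was 0.09, 0.18 and 0.37, and without replicate 3 it was 0.14 and did not pass (adjusted p = 0.0568).

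Egln1 in the lung ranged from 37.7 to 48.3 scaled TPM in normoxia (median 44.4) and from 17.7 to 46.8 after IH (median 40.1). The IH libraries reached far lower than the normoxia ones and were lower on average at 8 of 8 time points, with a log2 change of -0.26 (SE 0.069, adjusted p = 0.000721). The direction turned to 0.19 (limma adjusted p = 0.0186) when the model also held the number of genes detected. Under that model Egln2 remained higher at 0.35 (adjusted p = 0.000208) and Hif1an passed as higher at 0.32 (adjusted p = 0.000356). Egln3 (0.02, adjusted p = 0.921) and Vhl (-0.07, adjusted p = 0.333) did not pass under it. In the lung that number was 21746 to 25400 in normoxia and 23622 to 28284 after IH. The ranges overlapped only through normoxia replicate 2 at 1:30, so that the effects of that number and of IH can hardly be told apart. Egln3 ranged from 0.832 to 2.68 scaled TPM (median 1.29) in normoxia and from 0.487 to 1.81 (median 0.980) after IH, a log2 change of -0.24 (SE 0.091, adjusted p = 0.0152) that was lost without replicate 1 (-0.22, adjusted p = 0.0861) and without replicate 2 (-0.15, adjusted p = 0.201). Vhl went from 16.4 to 20.6 scaled TPM (median 18.6) in normoxia to 11.9 to 20.1 (median 16.8) after IH, a log2 change of -0.12 (SE 0.037, adjusted p = 0.00433), and did not pass without replicate 3 (-0.09, adjusted p = 0.0985). Hif1an did not pass (-0.03, SE 0.063, limma adjusted p = 0.628) on scaled TPM, but was higher at 0.26 with TPM as deposited (adjusted p = 0.00218). Relative to the median gene Hif1an stood at 0.04 on scaled TPM and at 0.06 with TPM as deposited.

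Other transcripts moved with the IH libraries of the lung. The lung markers (surfactant proteins and other epithelial genes) were lower for 5 of 5 genes, with sums of 133400 to 262000 TPM in normoxia and 33460 to 201300 TPM after IH, and the medians of IH replicates 1, 2 and 3 were 80810, 108200 and 177400 TPM. Endothelial markers were lower for 5 of 5 genes (398.4 to 1269 against 482.2 to 1023 TPM in sum), as were red blood cell markers, while 3 of 5 heart markers were higher. In bulk tissue, fewer cells of a type and less RNA per cell cannot be told apart, and the part of these shifts in the results of the 5 genes was not tested.

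In the cerebellum Egln2 had its largest change of the 6 tissues on scaled TPM, while with TPM as deposited its changes in the lung (0.52) and the cerebellum (0.50) were about the same. As deposited it ranged from 58.1 to 120.4 TPM in normoxia (median 71.3) and from 39.4 to 201.9 TPM after IH (median 107.5). Most IH libraries lay above the normoxia median, and the lowest, replicate 3 at 1:30, was the library with heart markers at 33.2%. The log2 change on scaled TPM was 0.51 (SE 0.106, limma adjusted p = 0.000774), or 1.42-fold, and the IH mean was higher at 8 of 8 time points. It was 0.43 (adjusted p = 0.000527) without the 3 libraries per treatment that held heart markers above 10%, and 0.57 (adjusted p = 5.81e-05) with the heart marker level as a term. Within replicates 1, 2 and 3 the change was 0.59, 0.75 and 0.18, and without replicate 2 it was 0.39 and did not pass (adjusted p = 0.200). Calls over all cerebellum genes also fell, from 1453 higher and 781 lower to 36 and 13 without replicate 2. They were 168 and 26 without replicate 1, and 0 and 0 of 14419 genes in replicate 3 alone.

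Hif1an in the cerebellum ranged from 4.20 to 9.33 scaled TPM in normoxia (median 5.27) and from 4.92 to 10.8 after IH (median 6.61), with overlap. Its log2 change was 0.28 (SE 0.080, adjusted p = 0.0122), with IH higher at 7 of 8 time points. With TPM as deposited the change was nearly the same at 0.27 but did not pass (adjusted p = 0.192), and it also did not pass without replicate 1 (0.21, adjusted p = 0.292) or replicate 2 (0.21, adjusted p = 0.466), or when the model held the number of genes detected (0.24, adjusted p = 0.0541). In replicate 3 alone, where 0 of 14419 genes passed, it was -0.0034. Egln1 (0.17, adjusted p = 0.106), Egln3 (-0.13, adjusted p = 0.481) and Vhl (0.13, adjusted p = 0.465) did not pass.

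In the heart, Hif1an was the member that passed. It ranged from 3.00 to 8.97 scaled TPM in normoxia (median 6.45) and from 5.82 to 12.5 after IH (median 8.43). The groups overlapped, with the IH mean higher at 8 of 8 time points, and the log2 change was 0.35 (SE 0.078, limma adjusted p = 0.000325). It was 0.46 with TPM as deposited (adjusted p = 0.00131), and 0.54, 0.17 and 0.33 within replicates 1, 2 and 3. When the model also held the number of genes detected it was -0.07 (adjusted p = 0.770). That number did not overlap between treatments in the heart (22988 to 28331 in normoxia, 20316 to 22793 after IH), so that its effect and that of IH cannot be told apart there. Endothelial markers were higher for 5 of 5 genes in the heart after IH (126.8 to 328.2 against 216.7 to 382.1 TPM in sum) and heart markers for 0 of 5, and the part of the former in the Hif1an change was not tested. For Egln1 (0.16, limma adjusted p = 0.0961), Egln2 (-0.06, adjusted p = 0.362), Egln3 (0.16, adjusted p = 0.147) and Vhl (0.10, adjusted p = 0.0539) the test was not passed. With TPM as deposited Egln1 (0.28, adjusted p = 0.00135) and Egln3 (0.28, adjusted p = 0.0231) passed as well. The median change of all heart genes moved from 0.04 on scaled TPM to 0.15 with TPM as deposited. Relative to the median gene the values of the scales were close, at 0.12 and 0.13 for Egln1 and for Egln3.

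In the liver, Vhl was the member that passed. Its libraries ranged from 3.77 to 6.79 scaled TPM in normoxia (median 5.20) and from 4.13 to 14.4 after IH (median 6.69). The IH mean was higher at 8 of 8 time points, with a log2 change of 0.33 (SE 0.089, limma adjusted p = 0.00581). The change was 0.21 with TPM as deposited and did not pass (adjusted p = 0.0931), nor did it without replicate 1 (0.26, adjusted p = 0.160) or replicate 2 (0.27, adjusted p = 0.217), and it was 0.06 in replicate 3 alone. Calls over all liver genes also fell, from 1240 higher and 1508 lower to 44 and 62 without replicate 1. They were 94 and 137 without replicate 2, and 0 and 1 of 11468 genes in replicate 3 alone. The PHD genes and Hif1an had changes between 0.10 and 0.22 that did not pass (adjusted p from 0.0738 to 0.508). The highest scaled Vhl, 14.4, was in IH replicate 1 at 13:30, with 8.15 TPM as deposited and a size factor of 0.5675. A single IH library, the one with heart markers, had the highest Egln1 (34.3 TPM) and the lowest Egln2 (11.4 TPM) and Vhl (2.19 TPM). Without that library Egln2 also passed (0.18, adjusted p = 0.0111), the change of Egln1 went from 0.17 to 0.05, and that of Vhl was 0.35 (adjusted p = 0.00194). After IH 4 of 5 kidney markers and 5 of 5 heart markers were higher in the liver libraries and 2 of 5 liver markers lower. Red blood cell markers were higher for 4 of 5 genes and lower for 1 (median sums of 2740 and 4247 TPM), and white blood cell markers higher for 2 of 3 tested. The part of these shifts was not tested.

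In the kidney the changes of the 5 genes lay between -0.02 and 0.09 on the log2 scale, with 95% confidence intervals from -0.13 to 0.22 at the widest. A single IH library, replicate 3 at 19:30, had 114.3 TPM of Egln2, where the normoxia libraries went up to 61.7 TPM. In the muscle, Egln3 ranged from 2.98 to 8.32 scaled TPM in normoxia (median 5.56) and from 3.61 to 13.4 after IH (median 7.19), with a log2 change of 0.31 (SE 0.107, adjusted p = 0.0550). Hif1an had a change of -0.13 there (SE 0.043, adjusted p = 0.0508), and Egln1, Egln2 and Vhl lay between -0.06 and 0.02. Egln3 passed in the muscle with TPM as deposited (0.40, limma adjusted p = 0.00893), but relative to the median gene it was at 0.31 on both scales. Egln3 and Hif1an both passed in the muscle with time point as a term (adjusted p = 0.0348 and 0.0386). Beside these values, 5 of 5 red blood cell markers were higher in the kidney and 3 of 5 muscle markers lower in the muscle after IH, and their part was not tested.

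The ratio of Egln2 to Egln1 within a library does not depend on the scale. In the lung it ranged from 1.02 to 1.68 in normoxia (median 1.36) and from 1.39 to 3.13 after IH (median 1.70). All 24 IH libraries lay above the normoxia median, and the IH mean was higher at 8 of 8 time points. The lung ratios from 2.27 to 3.13 were all in IH libraries with 26818 to 28284 genes detected. The other lung IH libraries had up to 26123 genes detected and ratios of 1.39 to 1.81. The part of that number in the ratio was not tested. In the cerebellum the ratio ranged from 1.64 to 4.03 (median 2.30) in normoxia and from 0.965 to 6.01 (median 3.27) after IH, with 21 of 24 IH libraries above the normoxia median and 8 of 8 time points higher. In the other tissues the ratio was higher after IH at 4 of 8 time points in the liver and the kidney, 2 of 8 in the muscle and 1 of 8 in the heart. As a share of the summed PHD TPM, Egln2 went from 56.1% ± 3.21 to 64.0% ± 4.88 in the lung and from 68.2% ± 4.41 to 73.1% ± 8.09 in the cerebellum (SD, n = 24 each). The ratio is a measure built from values already tested above and has no test of its own.

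**Figure D3:**
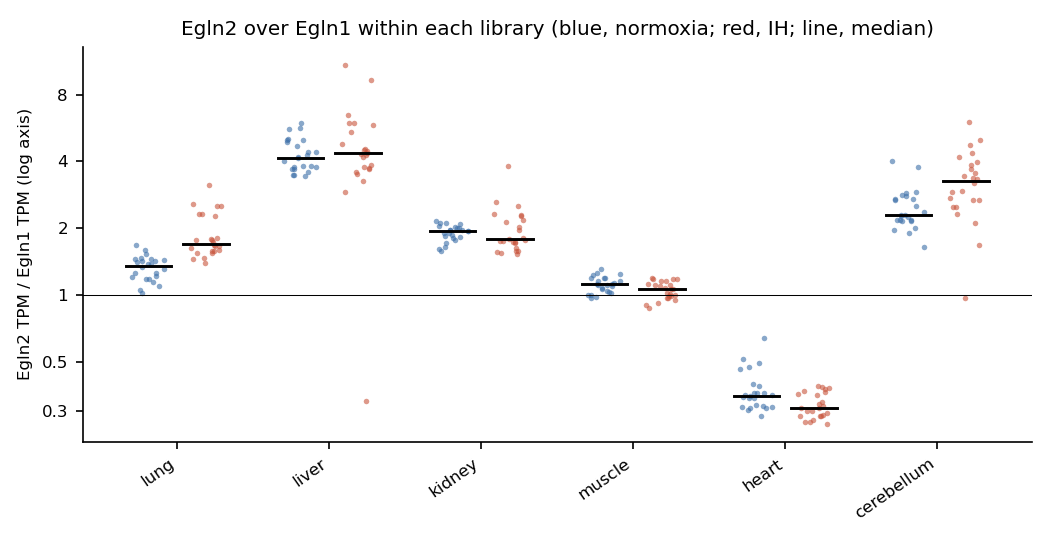
Egln2 TPM divided by Egln1 TPM in each library on a log axis, against tissue, with 1 point per library, blue for normoxia and red for IH, and a black line at the median of 24 libraries. In the lung all 24 IH points lie above the normoxia median of 1.36, and in the heart the ratio is below 1 in both treatments.

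Whether the change after IH differed between tissues was tested over all libraries as an interaction of tissue and treatment. All 5 genes passed, with adjusted p = 2.76e-08 for Egln2, 7.09e-06 for Hif1an, 0.000322 for Egln3, 0.000463 for Vhl and 0.00161 for Egln1. This was also the case for 88.3% of the 9876 genes tested, so that a difference between tissues is no mark of these genes. Of the 15 pairs of tissues, 7 passed for Egln2 and for Hif1an and 5 for each of Egln1, Egln3 and Vhl, where 36.2% of all pairs over all genes did. The pairs of Egln1 were those of the lung with each other tissue, with the lung change lower than theirs, with differences of -0.43 (cerebellum) to -0.29 (muscle) on the log2 scale. On scaled TPM the change of Egln2 was higher in the cerebellum than in each other tissue, by 0.30 (lung) to 0.57 (muscle), although as deposited the changes in lung and cerebellum were 0.52 and 0.50, and the lung a higher one than the muscle (0.28) and the heart (0.27). For Egln3 the change in the lung was lower than in the liver, muscle and heart (differences of -0.55 to -0.41), and the change in the cerebellum was lower than in the liver and the muscle, where it stood 0.35 and 0.44 higher. The change of Hif1an was higher in the heart and the cerebellum than in the lung, kidney and muscle (differences of 0.30 to 0.47), and higher in the heart than in the liver (0.25). For Vhl the change was higher in the liver than in the kidney (by 0.32), muscle (0.31) and heart (0.23), and lower in the lung than in the liver (-0.45) and the cerebellum (-0.24). With TPM as deposited, Egln1 (adjusted p = 0.231) and Vhl (adjusted p = 0.274) no longer passed the interaction test, and with genes detected in the model Egln1 did not (adjusted p = 0.0944). The pairs of tissues were tested on scaled TPM only.

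Rhythm was tested with a cosine of 24 hours fitted to TPM as deposited, and acrophase is the time of its peak on the clock of the sample labels. Of 60 tests (5 genes, 6 tissues, 2 treatments) 1 passed an adjusted p of 0.05, where 2.62% of all tests did, while for 15 the p before adjustment was 0.05 or less. The gene was Egln3 in the heart after IH, in a group where 1.21% of genes passed. It had a MESOR (the rhythm-adjusted mean) of 18.3 TPM, an amplitude of 5.10 TPM or 27.9% of the MESOR, and an acrophase of 21.7 h (adjusted p = 0.0483). This call was lost with replicate number as a block and without replicate 1, 2 or 3 in turn. Mean levels of the 3 libraries at a time point went from 12.3 ± 1.01 TPM at 10:30 to 24.6 ± 5.37 TPM at 22:30. In normoxia the Egln3 curve in the heart had a MESOR of 14.8 TPM, an amplitude of 3.17 TPM and an acrophase of 21.8 h (adjusted p = 0.382), and the curves of both treatments were not shown to differ (p = 0.373). As a check of the time labels, Dbp, an output gene of the clock, peaked between 8.17 h (lung after IH) and 10.2 h (heart in normoxia).

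In the muscle Egln3 had an amplitude of 2.59 TPM after IH around a MESOR of 7.91 TPM, with an acrophase of 23.5 h, and did not pass (adjusted p = 0.0658). Its mean over 3 libraries was 5.56 ± 0.280 TPM at 10:30 and 11.0 ± 1.99 TPM at 22:30. In normoxia the amplitude in the muscle was 0.459 TPM. This was the 1 case among 30 in which the curves of normoxia and IH differed by an F test before adjustment (p = 0.0148, adjusted p = 0.967). After adjustment 0 of 30 passed, where 0.000984% of all tests did. Hif1an in the lung after IH had an amplitude of 3.15 TPM around 22.1 TPM, with an acrophase of 22.2 h (adjusted p = 0.0508). The number of rhythmic cases depended on the method: on the log2 scale with limma 8 passed, among them Egln3 in the heart and the muscle after IH and in the kidney and the liver in normoxia. The share of all genes that passed on that scale is not given here. The count of 8 therefore cannot be set against the 2.62% of the cosine test on TPM as deposited.

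**Figure D4:**
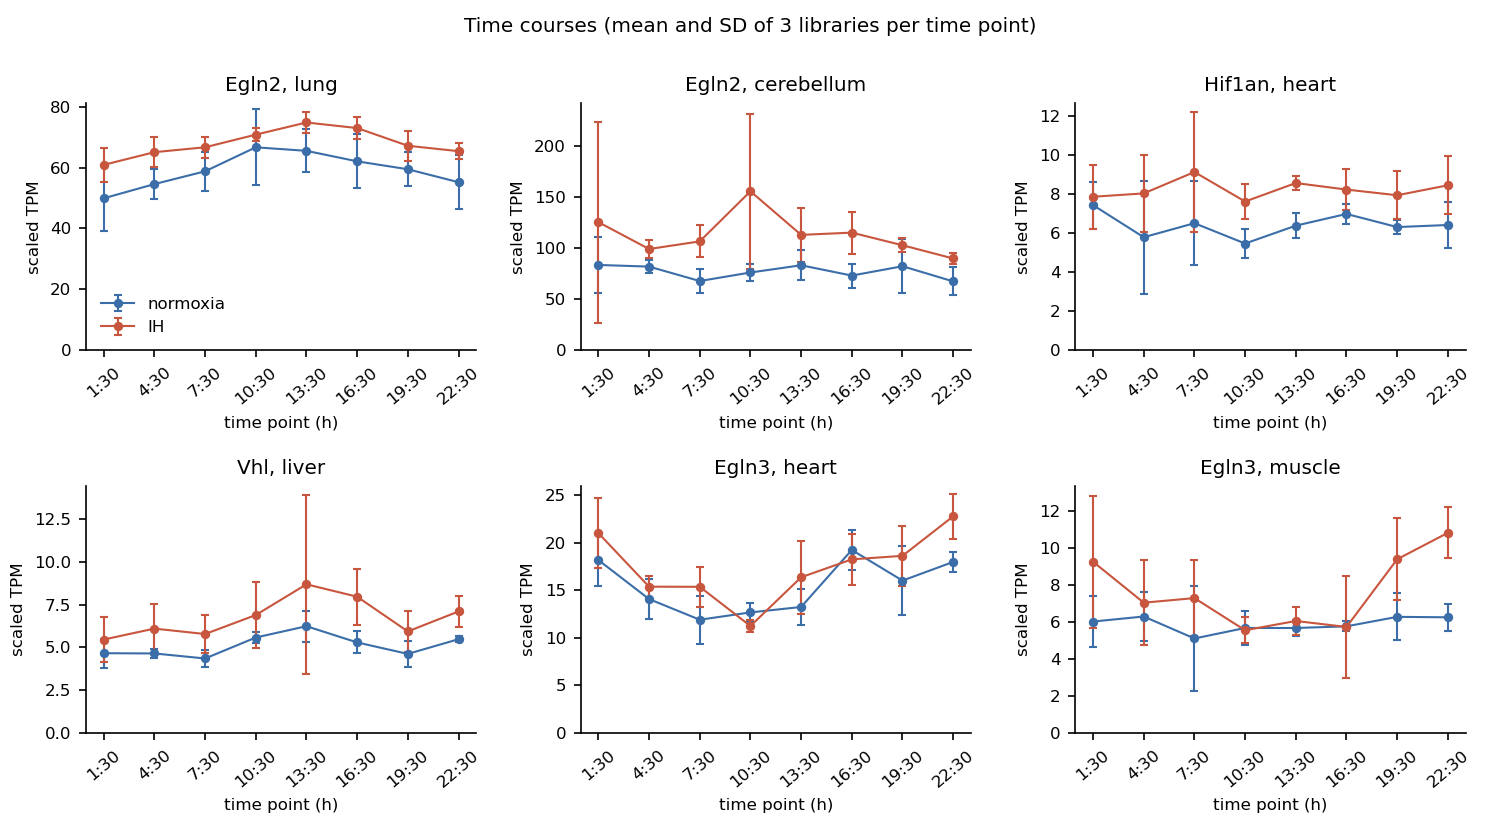
Scaled TPM against time point for Egln2 in the lung and cerebellum, Hif1an in the heart, Vhl in the liver and Egln3 in the heart and muscle, as mean and SD of 3 libraries, blue for normoxia and red for IH. The IH means of Egln2, Hif1an and Vhl lie above those of normoxia at 8 of 8 time points in these tissues, and Egln3 after IH reaches 22.8 in the heart and 10.8 in the muscle at 22:30.

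Across the 96 means of tissue, treatment and time point, the level of each gene was set beside that of 15546 genes by Pearson correlation on the scaled log2 level. These values are descriptions, since the points share tissues and libraries. Nearest to Egln1 were Perm1 (r = 0.978), a regulator of muscle metabolism, the potassium channel gene Kcna5 (r = 0.976) and Cox8b (r = 0.971), a subunit of cytochrome c oxidase. Nearest to Egln3 were Eci1 (r = 0.971), an enzyme of fatty acid oxidation, Hsdl2 (r = 0.961) and Dhrs11 (r = 0.956). Dnase1l1 (r = 0.972), the calpain gene Capn1 (r = 0.970) and Qser1 (r = 0.969) were nearest to Hif1an, and Cgrrf1 (r = 0.907), 1110012L19Rik (r = 0.895) and Map3k10 (r = 0.895) to Egln2. Trim37 (r = 0.918), Fbxo33 (r = 0.913) and Tmem170 (r = 0.910) were nearest to Vhl. The likeness came mostly from differences between tissues, since with the tissue means subtracted r was between 0.09 (Dhrs11) and 0.74 (Map3k10). Between the members, Egln1 and Vhl had r = -0.53 across the 96 means and 0.55 with the tissue means subtracted.

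Of 38 other genes of the pathway, chosen for their roles, 11 were higher and 20 lower of 37 tested in the lung on scaled TPM, and 7 of these 20 had values above 0 with TPM as deposited. In the heart 12 were higher and 6 lower of 36, in the kidney 5 and 4 of 37, and in the liver 2 and 5 of 34. The cerebellum had 4 and 1 of 38 and the muscle 3 and 0 of 37. None of the calls in these 5 tissues changed sign when TPM was taken as deposited. Over the list the median log2 change was -0.24 in the lung, where that of all genes was -0.08, and 0.07 in the heart against 0.04.

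**Figure D5:**
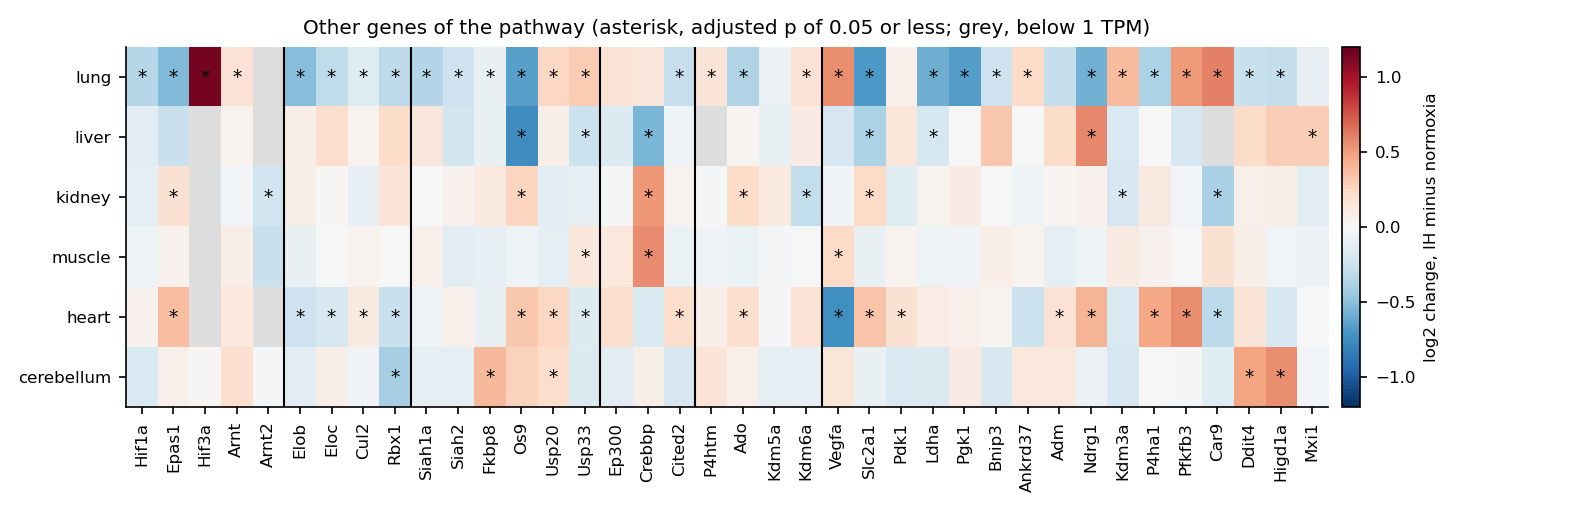
Log2 change after IH (scaled TPM, colour) of 38 other genes of the pathway, in columns, in the 6 tissues, in rows. Vertical lines separate HIF subunits, VHL ligase partners, proteins acting on the hydroxylases or VHL, coactivators, other dioxygenases and HIF targets, asterisks mark an adjusted p of 0.05 or less, and grey marks genes below 1 TPM. The lung has 31 asterisks and the muscle 3.

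Among the substrates of the sensors, Hif1a (-0.34), which encodes HIF-1α, and Epas1 (-0.53), which encodes HIF-2α, were lower in the lung and Arnt (0.18), their shared partner, was higher. With TPM as deposited these values were -0.05, -0.22 and 0.48. Hif3a, a HIF-α subunit with inhibitory forms, ranged from 0.255 to 2.81 TPM in normoxia (median 0.725) and from 0.860 to 11.9 TPM after IH (median 3.46), and rose by 1.15 on the log2 scale of scaled TPM (SE 0.207, adjusted p = 3.53e-06). Epas1 was higher in the heart (0.37, adjusted p = 0.000737) and the kidney (0.19, adjusted p = 0.0179). The partners of VHL in its ubiquitin ligase are encoded by Elob, Eloc, Cul2 and Rbx1. In the lung 4 of 4 were lower, by 0.15 to 0.51 on the log2 scale of scaled TPM, where 41.5% of all genes were lower. With TPM as deposited Cul2 was at 0.15, Eloc at -0.003, Rbx1 at -0.01 and Elob at -0.21. Vhl itself was at -0.12 in the lung on scaled TPM and at 0.18 with TPM as deposited. In the heart Cul2 was higher (0.11, and 0.23 with TPM as deposited) and Elob, Eloc and Rbx1 were lower (-0.27 to -0.19, and -0.15 to -0.07 with TPM as deposited), and in the cerebellum Rbx1 was lower (-0.40, adjusted p = 0.00849).

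Os9, whose product has been described as a partner of the hydroxylases and of HIF-1α, ranged from 67.1 to 111.3 TPM in the liver in normoxia (median 90.7) and from 10.9 to 115.0 TPM after IH (median 45.0). It fell by 0.75 on the log2 scale of scaled TPM (SE 0.143, adjusted p = 0.000158) and was also lower in the lung (-0.65, and -0.35 with TPM as deposited), but higher in the heart (0.32) and the kidney (0.25). Usp20 and Usp33, deubiquitinases that VHL targets, were both higher in the lung (0.25 and 0.31, and 0.54 and 0.61 with TPM as deposited). In the heart Usp20 was higher (0.25) and Usp33 lower (-0.16, and -0.05 with TPM as deposited). Crebbp, the coactivator gene whose binding FIH prevents, was higher in the muscle (0.57) and the kidney (0.52) and lower in the liver (-0.55). Among the other dioxygenases, Ado, a cysteamine dioxygenase that also senses oxygen, was lower in the lung (-0.36, and -0.07 with TPM as deposited) and higher in the kidney (0.22) and the heart (0.20, and 0.31 with TPM as deposited).

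HIF targets went in both directions in the same tissue. In the lung 5 of 16 were higher and 8 lower, beside 28.9% and 41.5% of all genes. The median log2 change of the targets there was -0.26 against -0.08 for all genes. Slc2a1, the glucose transporter GLUT1, went from 13.8 to 20.7 TPM (median 16.9) in normoxia to 5.52 to 21.2 TPM (median 12.8) after IH and fell by 0.69 on the log2 scale of scaled TPM (SE 0.114, adjusted p = 7.00e-07). The glycolytic gene Pgk1 went from 81.4 to 96.9 TPM (median 90.0) to 41.8 to 93.4 TPM (median 76.6) and fell by 0.66 (SE 0.077, adjusted p = 2.95e-10). With TPM as deposited the changes of Slc2a1 and Pgk1 were -0.40 and -0.36, below 1.5-fold. The 4 lung targets past the test and 1.5-fold also included Ldha, which was lower (-0.59, and -0.29 with TPM as deposited). Car9 was the one that was higher (0.60, limma adjusted p = 1.60e-08, and 0.88 with TPM as deposited). Vegfa, which encodes a growth factor for blood vessels, was higher in the lung (0.55, and 0.86 with TPM as deposited) and the muscle (0.23), while in the heart it went from 46.6 to 196.2 TPM (median 91.1) to 45.8 to 114.0 TPM (median 61.5) and fell by 0.73 (SE 0.125, adjusted p = 7.62e-06). In the heart 6 of 16 targets were higher and 2 lower, beside 28% and 17.3% of all genes. In the liver 2 of 15 targets were higher and 2 lower, beside 10.9% and 13.3% of all genes. In the kidney, muscle and cerebellum 0 of the 38 genes passed the test together with a 1.5-fold change.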

How the data were processed

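Poly(A) RNA of 6 tissues was sequenced as strand-specific libraries. According to the submitters' processing notes and the study's methods, the authors demultiplexed reads with bcl2fastq, checked them with FastQC 0.11.3, quantified transcripts with kallisto (Ensembl transcripts, mm10) and summed them to genes. The deposited tables give TPM for 35904 genes (sums of 989211 to 999188 in each library). Without counts, the sequencing depth of each library and its counting error are unknown, although the study gives a median number of mapped reads per sample. The authors' DESeq2 fits on estimated counts are not analysed here.

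Each table column was matched to its sample by tissue, treatment, time point and replicate. Size factors were medians of ratios, taken within each tissue (over all normoxia libraries for levels), and log2(scaled TPM + 0.5) was compared with limma 3.58.1 in R 4.3.3, with treatment as the only term and an intensity trend, for genes whose mean was at least 1 TPM. A fold change on this scale understates that of low genes. P-values of these comparisons are 2-sided and were adjusted by the Benjamini-Hochberg method over all genes tested in a tissue, or over all genes and 15 pairs of tissues together, and the call was an adjusted p of 0.05. In the interaction and level tests, libraries of different tissues were taken as independent. Rhythm was tested by an F test of a 24-hour cosine on TPM as deposited, since MetaCycle, which the study used with CircaCompare, was not run here, for genes whose maximum was at least 1 TPM. Tests were run on simulated data with independent noise and no built-in differences of scale, replicate number or genes detected. That check therefore does not cover the effects of those features. The study describes 3 mice per time point and condition, but the labels name no mouse for a library. P-values measure the spread between these libraries, which may be technical in part.

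The 5 members, the 38 pathway genes and the marker lists were chosen with earlier results of these data known. Pathway genes are named with full values where they passed the test and 1.5-fold, at most 3 per tissue; further ones are named by their group, after their values were seen. Promoters come from RefSeq (GRCm38.p6), where 5 of 5 members had an entry. Python 3.11.15, numpy 2.4.6, scipy 1.17.1, pandas 2.3.3 and matplotlib 3.10.9 were used. Alternatives were TPM as deposited, other pseudocounts (0.1 and 1) and minimum levels, terms for time point, replicate number and genes detected, a replicate block, and leaving out libraries; terms and subsets for heart markers in the cerebellum and single replicate numbers were added after seeing the data.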

Additional observations from a re-analysis of the deposited data

Results flagged for a closer look

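The change after IH differed among the 6 tissues for each of the 5 genes (limma interaction test over all libraries, adjusted over 9876 genes), with adjusted p = 0.001605 for Egln1, 2.761e-08 for Egln2, 0.0003219 for Egln3, 7.09e-06 for Hif1an and 0.0004629 for Vhl. As 88.3% of all genes passed the same test, these values do not set the oxygen sensors apart from other genes. The changes behind them ran from -0.26 (lung) to 0.17 (cerebellum) for Egln1, from -0.06 (muscle) to 0.51 (cerebellum) for Egln2, from -0.24 (lung) to 0.31 (muscle) for Egln3, from -0.13 (muscle) to 0.35 (heart) for Hif1an and from -0.12 (lung) to 0.33 (liver) for Vhl, on the log2 scale of scaled TPM.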

How the results depend on the processing

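Of 492 values of single genes under an alternative, 427 kept their direction and side of the threshold where either mattered, 28 passed newly, 26 no longer passed and 11 reversed. The reversed values were, with TPM as deposited, Egln1 0.0364, Hif1an 0.26 and Vhl 0.18 in the lung; with genes detected in the model, Egln1 0.19, Egln3 0.0185 and Hif1an 0.32 in the lung and Hif1an -0.0718 in the heart; and with replicate 3 alone, Egln3 0.000589 and Hif1an 0.20 in the lung, Hif1an 0.14 in the kidney and Hif1an -0.0034 in the cerebellum.

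The number of members changed moved by over 1.5 times as follows. With TPM as deposited it was 0 in the liver (1 as reported), 1 in the muscle (0), 3 in the heart (1), 1 in the cerebellum (2) and 3 in the interaction (5). Over all genes, that scale gave 408 higher and 2059 lower in the liver, and 1865 and 81 in the muscle. It gave 4788 and 816 in the heart, and 617 and 319 in the cerebellum. In the lung the number of members went from 4 to 3 with TPM as deposited (Egln2, Hif1an and Vhl) and with genes detected as a term (Egln1, Egln2 and Hif1an), so that other genes were called, and in the interaction that term gave 4. With genes detected as a term it was 1 in the kidney, 0 in the heart and 1 in the cerebellum, and with a mean of at least 5 TPM it was 1 in the muscle and 3 in the interaction, where 3 members could be tested. Time point or replicate number as a term gave 2 for muscle and 2 for heart. Without the library of lowest correlation it was 2 in the liver, 1 in the muscle and 2 in the heart; in the liver this library is also the one with heart transcripts. Leaving out each replicate number in turn gave 2 to 3 in the lung, 0 to 1 in the liver, 0 to 1 in the kidney, 0 to 1 in the muscle, 1 to 2 in the heart, 0 to 3 in the cerebellum, 3 to 5 in the interaction and 0 to 2 for rhythm. With 1 replicate number alone it was 2 (replicate 1) and 0 (replicate 2) in the lung, 0 in the liver and 2 in the kidney (replicate 3), 0 in the heart (replicate 2), and 0 in the cerebellum (replicates 1 and 3), with 16 libraries per fit. Over all genes, replicate 3 alone gave 0 higher and 1 lower in the liver, and 0 and 0 in the cerebellum. Replicate 1 alone gave 848 and 410 in the cerebellum, and replicate 2 alone 3502 and 4345 in the lung. Rhythmic cases were 8 on the log2 scale with limma and 2 with a mean of at least 1 TPM, both with Egln3 in the heart after IH. For rhythm, the shares of all genes that passed under the alternatives are not given here.

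Same-numbered libraries of both treatments were not treated as pairs. Their deviations correlated at medians of -0.136 (lung) to 0.224 (liver). The correlation was above 0.1 in 16 of 24 pairs in the liver and 12 of 24 in the muscle, and in 5 (lung) to 8 (heart) of 24 elsewhere. The unpaired tests leave out what such pairs shared. The replicate block gave 2 members in the muscle, 3 in the heart and 2 rhythmic cases (Egln3 in the liver in normoxia and Hif1an in the lung after IH, without the reported Egln3 in the heart), and the same numbers as reported elsewhere. Without replicate 1 the rhythmic cases were Egln2 and Vhl in the kidney in normoxia. The depth of each single library is unknown, so low values such as those of Egln3 in the lung cannot be given a counting error. Where no cause is given here, the cause was not tested.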
